A study of Mus musculus with 18 samples.

Results

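The genes described here are 8 components of the LIF-Stat3 pathway, taken from a table of 45706 genes by their symbols. They are the receptor chains Lifr, Il6st and Osmr, the transcription factor Stat3, its feedback inhibitor Socs3, and the genes Bcl3, Pim1 and Gbx2, which Stat3 is known to induce in mouse pluripotent cells. All 8 had enough reads to be among the 16619 genes tested. RNA was sequenced from mouse induced pluripotent stem cells (iPSCs) before induction into epiblast-like cells (EpiLCs) and 24 h after it began. The cells were wt for Hmga2, a chromatin protein, or belonged to the Hmga2 KO lines KO#1 and KO#2. Each KO line is 1 clone, and the labels name no clone for the wt libraries. At 0 h all 3 lines grew on inactivated fibroblast feeder cells in medium with serum, leukaemia inhibitory factor (LIF) and the kinase inhibitors PD0325901 and CHIR-99021. For the 24 h libraries the cells were plated on a basement membrane matrix with no feeders, in serum-free medium to which Activin A and bFGF were added. Each of the 6 groups (wt, KO#1 and KO#2 at 0 h and at 24 h) held 3 libraries from independent biological replicates, 18 libraries in all. The loss of LIF, the inhibitors, serum and feeders, the addition of Activin A and bFGF and the passing of time cannot be told apart in this design.

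LIF binds Lifr, which pairs with Il6st (gp130), and the receptor-bound Jak kinases then phosphorylate Stat3. Phosphorylated Stat3 enters the nucleus and activates genes that hold mouse cells in the naive pluripotent state, among them Socs3, whose product binds the receptor and shuts the signal down. Osmr replaces Lifr in the receptor for oncostatin M, a related cytokine. RNA levels say nothing of the phosphorylation of Stat3 itself, which was not measured in these libraries.

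Total counts ranged from 3466436 to 23872837 per library, and replicate 1 of wt cells at 0 h was the shallowest. Levels are given as CPM, counts per 1000000 of a library total that was scaled by its TMM factor, and 3 counts corresponded to 0.116 to 0.984 CPM. Hmga2 RNA lay between 13.3 and 22.4 CPM in wt cells at 0 h, between 1.75 and 10.2 CPM in KO#1 and between 1.84 and 8.25 CPM in KO#2, of which the latter passed the edgeR test against wt cells (adjusted p = 0.124 and 0.023). That call was lost without replicate 3 of wt cells or replicates 1 or 2 labelled KO#2 (log2 fold changes of -1.81 to -1.52) and without TMM factors (-1.44, edgeR adjusted p = 0.0583). At 24 h it lay between 5.51 and 5.93 CPM in wt cells and between 0.871 and 3.67 CPM in KO#1, where it did not pass the edgeR test either (log2 fold change -1.36 ± 0.64 SE, adjusted p = 0.22). The KO#2-labelled libraries at 24 h lay between 3.02 and 10.5 CPM, on both sides of the wt range (log2 fold change -0.04 ± 0.60 SE, edgeR adjusted p = 0.966), so that Hmga2 RNA gave no check of their label. The structure of the KO alleles is not given in the sources used here. The summed level of 4 general pluripotency markers at 0 h was 2189.9 to 2855 CPM in wt cells, 2052 to 2525 CPM in KO#1 and 1369 to 1440.1 CPM in the KO#2-labelled libraries, below every library of the other lines. The summed level of 10 naive markers fell from between 3118 and 4303 CPM to between 300.5 and 327.4 CPM in wt cells, and that of 8 primed markers rose from between 131 and 205 CPM to between 1331 and 2209.9 CPM.

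The DNA before the RefSeq starts of Socs3 and Gbx2 is shown because these genes moved in opposite directions at 24 h, and the pair was chosen after their values were seen. They are the 250 bases before the RefSeq start of each gene in build GRCm38.p6, read 5′ to 3′ on the minus strand, chr11:117969367-117969616 for Socs3 and chr1:89931177-89931426 for Gbx2. Capitals mark a match to TTCNNNGAA, a consensus for Stat binding that reads the same on both strands.
Socs3: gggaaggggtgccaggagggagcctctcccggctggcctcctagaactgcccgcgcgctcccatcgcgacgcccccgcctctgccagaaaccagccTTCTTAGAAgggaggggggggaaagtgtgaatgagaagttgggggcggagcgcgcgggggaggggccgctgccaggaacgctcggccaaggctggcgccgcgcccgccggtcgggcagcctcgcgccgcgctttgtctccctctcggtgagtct
Gbx2: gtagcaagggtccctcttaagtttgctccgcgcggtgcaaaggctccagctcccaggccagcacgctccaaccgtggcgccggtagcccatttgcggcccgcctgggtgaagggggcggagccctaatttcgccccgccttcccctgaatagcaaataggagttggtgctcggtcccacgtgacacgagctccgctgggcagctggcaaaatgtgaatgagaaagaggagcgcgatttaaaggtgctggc
The Socs3 match, TTCTTAGAA, lay 154 to 146 bases before the RefSeq start. The Socs3 stretch lies inside the GENCODE span of the gene (chr11:117966079-117970047), so by that annotation it is not upstream of the gene. All 8 genes had a RefSeq window from 250 bases before to 50 bases after a start, and Lifr and Pim1 had more than 1, which gave 10 windows. The Socs3 window was the 1 of these 10 that held the motif, against 8.298% of the 32851 windows of this length in the RefSeq table. The absence of these letters from the other windows says nothing about sites elsewhere or of another form.

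In wt cells, the RNA of all 8 genes differed between 0 h and 24 h of EpiLC induction. The 3 receptor chains, Stat3, Socs3, Bcl3 and Pim1 fell, with the largest falls in Socs3, Osmr and Bcl3, while Gbx2 rose. With edgeR's quasi-likelihood test and Benjamini-Hochberg adjustment over all genes tested, 8 of 8 genes were called in wt cells (7 lower, 1 higher), where 50.7% of all genes were called (24.7% lower, 26.0% higher). KO#1 had 7 of 8 called (6 lower, 1 higher) against 40.8% of all genes (20.6% lower, 20.1% higher). The KO#2-labelled libraries had 6 of 8 (5 lower, 1 higher) against 26.0% (13.3% lower, 12.7% higher). The median log2 fold change of the 8 genes was -2.69 (wt), -2.08 (KO#1) and -1.66 (KO#2-labelled), beside medians of all genes tested of 0.030, 0.0037 and -0.028. In bulk RNA, fewer cells of a type and less RNA per cell cannot be told apart.

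**Figure D1:**
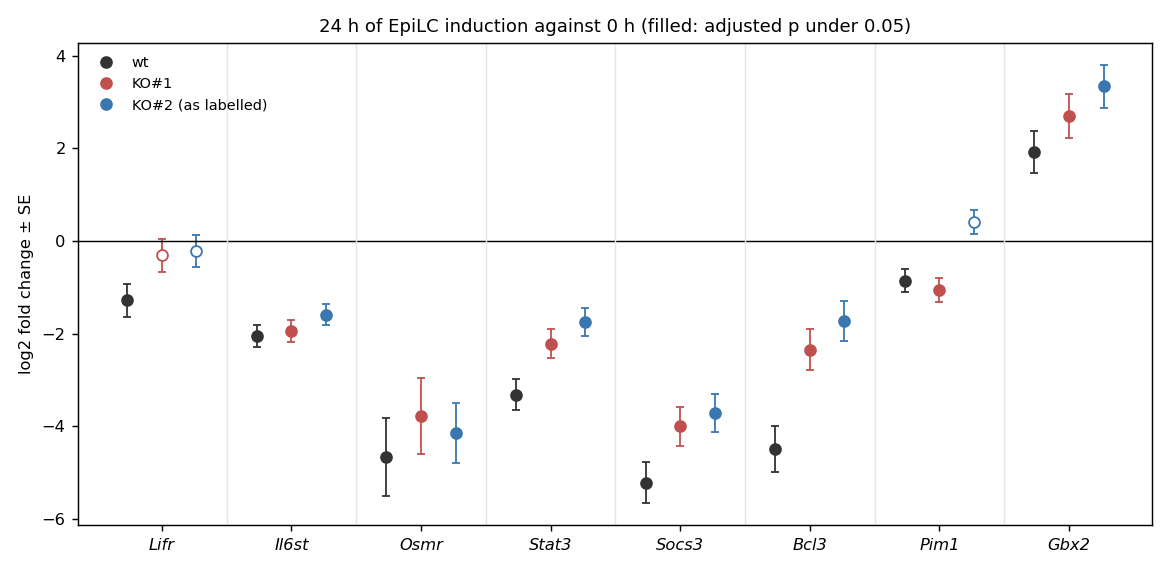
Log2 fold change from 0 h to 24 h (vertical axis) of each of the 8 genes in wt cells, KO#1 and the KO#2-labelled libraries, with bars of ± 1 SE from the edgeR model. Filled points had an adjusted p under 0.05: Socs3 lay lowest in wt cells at -5.22, Gbx2 lay above 0 in all 3 lines, and the open points are Lifr in both KO lines and Pim1 in the KO#2-labelled libraries.

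Lifr, the chain that binds LIF (ENSMUSG00000054263, chr15:7090614-7197489, plus strand, GRCm38), was at 51.5, 59.6 and 73.1 CPM in wt cells at 0 h and at 23.4, 23.9 and 28.6 CPM at 24 h. The groups did not overlap, and the fall was 2.43-fold (log2 fold change -1.28 ± 0.36 SE, edgeR adjusted p = 0.00697). KO#1 had 47.3, 70.6 and 25.9 CPM at 0 h and 32.0, 43.3 and 40.5 CPM at 24 h. The KO#2-labelled libraries had 92.3, 58.4 and 143 CPM at 0 h and 120, 79.8 and 53.1 CPM at 24 h. Within both KO lines the 2 time points overlapped, and the log2 fold changes of -0.30 ± 0.36 SE and -0.22 ± 0.35 SE did not pass the edgeR test (adjusted p = 0.512 and 0.694). Their differences from the change in wt cells, 0.98 ± 0.50 SE and 1.06 ± 0.50 SE, did not pass it either (edgeR adjusted p = 0.544 and 0.206). Ordered by their means, the 6 groups ran from KO#2 at 0 h (97.9 CPM) through KO#2 at 24 h, wt at 0 h, KO#1 at 0 h and KO#1 at 24 h to wt at 24 h (25.3 CPM), and only wt at 24 h was clear of its neighbour.

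Il6st, the signal-transducing chain shared by the receptors of this cytokine family (ENSMUSG00000021756, chr13:112464070-112510086, plus strand), fell in all 3 lines. In wt cells it was at 76.8, 61.4 and 71.9 CPM at 0 h and at 16.3, 15.7 and 18.3 CPM at 24 h. In KO#1 it went from 68.7, 65.1 and 44.3 CPM to 12.2, 16.3 and 17.5 CPM, overlapping wt cells at both times. Levels in the KO#2-labelled libraries went from 120, 89.6 and 132 CPM to 43.7, 40.5 and 29.3 CPM, above every wt library of the same time point. The time points did not overlap in any line. The log2 fold changes were -2.06 ± 0.24 SE in wt cells, -1.95 ± 0.24 SE in KO#1 and -1.59 ± 0.23 SE in the KO#2-labelled libraries (edgeR adjusted p = 4.61e-06, 1.47e-05 and 0.00011). By their means the groups ran from KO#2 at 0 h (114 CPM) through wt and KO#1 at 0 h, which overlapped, and KO#2 at 24 h (37.8 CPM) to wt and KO#1 at 24 h, which overlapped.

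Osmr, the chain specific to oncostatin M (ENSMUSG00000022146, chr15:6813577-6874969, minus strand), had few counts in wt cells and KO#1. In wt cells it was at 1.64, 5.23 and 1.83 CPM at 0 h and at 0.235, 0 and 0.0618 CPM at 24 h, from 84 and 5 counts over the 3 libraries. The pooled level was 28.0 times as high at 0 h as at 24 h (95% exact conditional interval 11.5 to 88.5, which covers counting error only). KO#1 went from 3.65, 3.34 and 0.876 CPM to 0.0735, 0.102 and 0.311 CPM, from 59 and 7 counts. The KO#2-labelled libraries went from 11.3, 15.4 and 13.1 CPM to 1.36, 0.697 and 0.217 CPM, from 894 and 49 counts. The fall thus separated the time points in every line, while the 0 h level of the KO#2-labelled libraries lay above all others. The log2 fold changes were -4.66 ± 0.84 SE in wt cells, -3.77 ± 0.82 SE in KO#1 and -4.14 ± 0.64 SE in the KO#2-labelled libraries (edgeR adjusted p = 0.000263, 0.00173 and 0.000184). At 24 h the counts in wt cells and KO#1, at most 5 per library, leave the order of these groups undetermined.

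Stat3, the transcription factor of the pathway (ENSMUSG00000004040, chr11:100885098-100939540, minus strand), was at 109, 94.6 and 128 CPM in wt cells at 0 h and at 10.2, 8.92 and 13.9 CPM at 24 h. This was a 9.98-fold fall (log2 fold change -3.32 ± 0.33 SE, edgeR adjusted p = 1.09e-06). KO#1 went from 100, 101 and 51.9 CPM to 13.5, 15.5 and 25.3 CPM, a log2 fold change of -2.22 ± 0.32 SE (edgeR adjusted p = 6.34e-05). The KO#2-labelled libraries went from 59.5, 57.6 and 101 CPM to 23.3, 24.1 and 17.6 CPM, a log2 fold change of -1.75 ± 0.31 SE (edgeR adjusted p = 0.000553). No 24 h library of any line reached the lowest 0 h library. By their means the groups ran wt (110 CPM), KO#1 and KO#2 at 0 h and then KO#2, KO#1 and wt (11.01 CPM) at 24 h, so that the order of the lines was opposite at the 2 time points, but neighbours within a time point overlapped. Exons of Stat3 overlap those of Stat5a on the other strand, which was at 4.91 to 11.8 CPM over the 18 libraries, and the use of strand in the counting is not stated.

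Socs3, the feedback inhibitor (ENSMUSG00000053113, chr11:117966079-117970047, minus strand), whose DNA before the RefSeq start is printed above with its Stat motif, had the largest fall in wt cells. There it was at 132, 108 and 88.7 CPM at 0 h and at 2.23, 2.71 and 3.83 CPM at 24 h, a 37.2-fold fall (log2 fold change -5.22 ± 0.44 SE, edgeR adjusted p = 2.17e-07). Levels in KO#1 went from 63.7, 91.7 and 26.9 CPM to 3.09, 2.86 and 5.23 CPM, a log2 fold change of -4.00 ± 0.42 SE (edgeR adjusted p = 3.15e-06). Among the KO#2-labelled libraries it went from 40.7, 38.7 and 65.9 CPM to 4.91, 3.33 and 2.87 CPM, a log2 fold change of -3.71 ± 0.41 SE (edgeR adjusted p = 6.12e-06). At 24 h the 3 lines overlapped between 2.23 and 5.23 CPM, and at 0 h the wt libraries were above every library labelled KO#2.

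**Figure D2:**
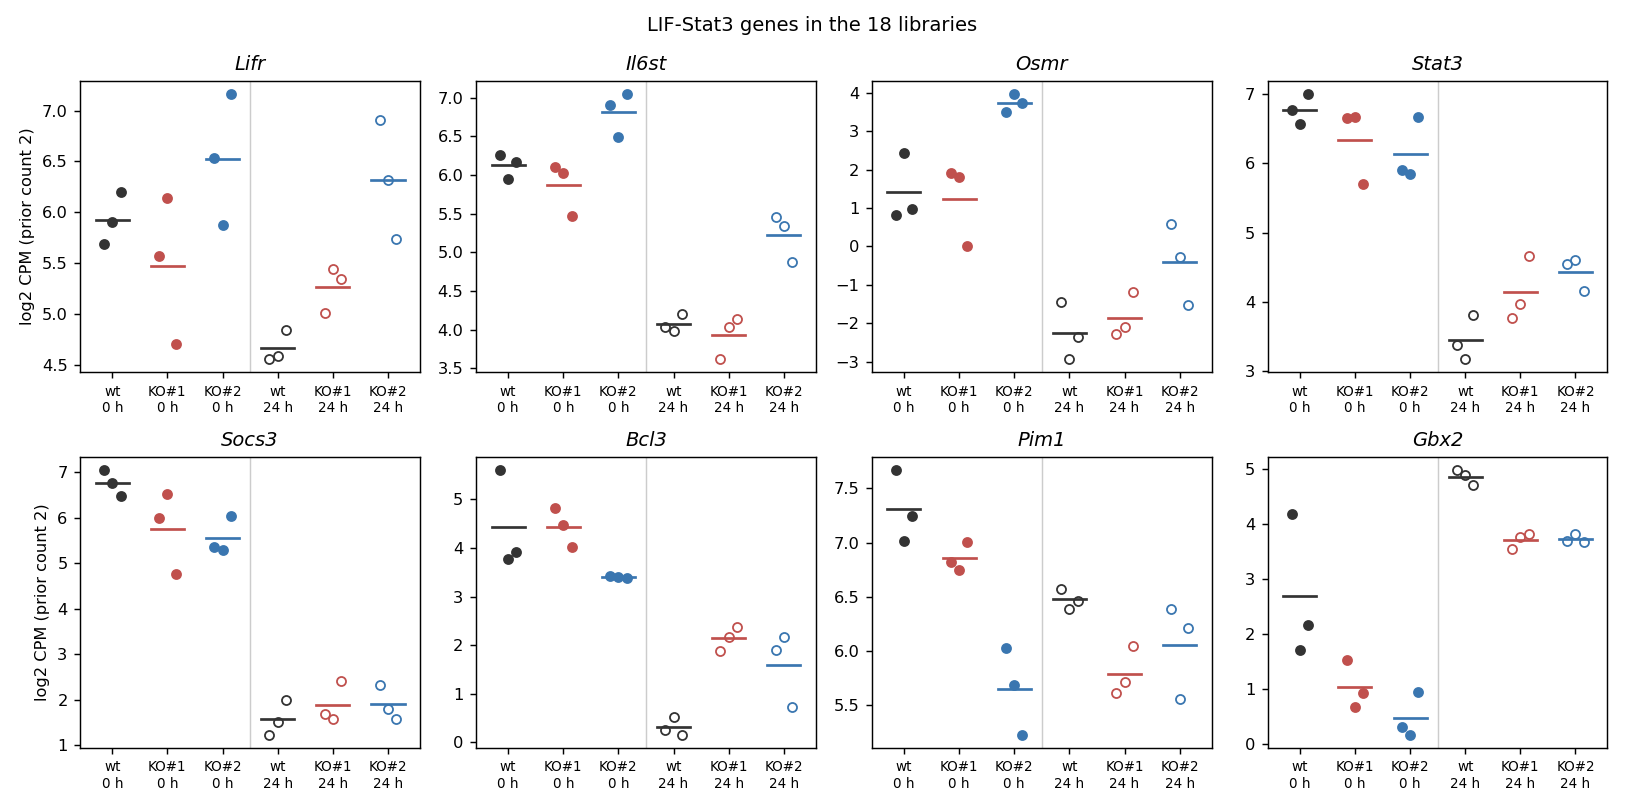
Log2 CPM (prior count 2, vertical axes, each with its own range) of the 8 genes in each of the 18 libraries, by line and time point. Filled points are 0 h, open points 24 h, and bars are group means: Il6st, Osmr, Stat3, Socs3 and Bcl3 are lower at 24 h in every line without overlap, Gbx2 is higher, and in wt cells at 0 h replicate 1 stands above the other 2 libraries for Bcl3 and Gbx2.

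Bcl3, a nuclear cofactor of NF-kB that Stat3 induces (ENSMUSG00000053175, chr7:19808462-19822770, minus strand), was at 48.5, 13.6 and 15.0 CPM in wt cells at 0 h and at 1.06, 1.30 and 0.988 CPM at 24 h. Replicate 1 at 0 h, the shallowest library, stood apart with more than 3 times the level of the other 2. The log2 fold change was -4.49 ± 0.50 SE (edgeR adjusted p = 3.1e-06), and -3.72 without that library. In KO#1 Bcl3 went from 28.0, 22.1 and 16.0 CPM to 3.53, 4.395 and 5.04 CPM, and in the KO#2-labelled libraries from 10.6, 10.5 and 10.4 CPM to 3.61, 4.37 and 1.52 CPM. The falls there were smaller, with log2 fold changes of -2.34 ± 0.44 SE and -1.73 ± 0.43 SE (edgeR adjusted p = 0.000568 and 0.00621). At 24 h every library of both KO lines was above every wt library. An antisense gene that overlaps its exons, Gm16175, had at most 1 count in any library.

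Pim1, a serine/threonine kinase that favours cell survival (ENSMUSG00000024014, chr17:29490753-29496112, plus strand), changed less. In wt cells it went from 203, 129 and 152 CPM to 95.04, 83.8 and 88.2 CPM, a 1.81-fold fall without overlap (log2 fold change -0.86 ± 0.25 SE, edgeR adjusted p = 0.00949). KO#1 went from 113, 108 and 129 CPM to 48.9, 52.3 and 66.2 CPM, a log2 fold change of -1.06 ± 0.25 SE (edgeR adjusted p = 0.00347). In the libraries with the KO#2 label it was already low at 0 h, at 65.1, 51.4 and 37.5 CPM, and stood at 83.8, 47.1 and 73.9 CPM at 24 h, where the time points overlapped (log2 fold change 0.41 ± 0.25 SE, edgeR adjusted p = 0.246). By their means wt at 0 h (161 CPM) and KO#1 at 0 h (116 CPM) were clear of the next group, and the remaining 4 groups, between 51.3 and 89.0 CPM, each overlapped their neighbour. The antisense gene Gm26885, which overlaps its exons, was at 0.144 to 1.99 CPM.

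Gbx2, a homeobox factor that supports naive self-renewal when overexpressed and is known from early neural patterning (ENSMUSG00000034486, chr1:89927956-89931179, minus strand), was the exception to the falls. In wt cells it was at 18.04, 3.12 and 4.34 CPM at 0 h and at 31.4, 29.7 and 25.9 CPM at 24 h, so that replicate 1 at 0 h stood far above the other 2 but below all 24 h libraries. The rise was 3.78-fold (log2 fold change 1.92 ± 0.45 SE, edgeR adjusted p = 0.00197), and the log2 fold change was 2.92 without that library. It rose in KO#1 from 2.74, 1.46 and 1.75 CPM to 11.5, 13.5 and 14.0 CPM, and in the KO#2-labelled libraries from 1.10, 0.989 and 1.77 CPM to 12.8, 13.9 and 12.51 CPM. These rises, with log2 fold changes of 2.70 ± 0.48 SE and 3.34 ± 0.47 SE (edgeR adjusted p = 0.000406 and 7.86e-05), ended in both KO lines below every wt library of 24 h. The antisense gene D130058E05Rik, which overlaps its exons, was at 3.12 to 6.23 CPM in wt cells at 0 h and at 4.41 to 5.93 CPM at 24 h. At 0 h it was at 2.10 to 3.26 CPM in KO#1 and 0.772 to 1.73 CPM in the KO#2-labelled libraries, so that its mean was lower there than in wt cells and above that of Gbx2. Whether it shared reads with Gbx2 was not tested.

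Per kilobase of exon, the scale on which genes can be compared, Pim1 and Socs3 had the highest levels in wt cells at 0 h, at 48.0 ± 11.4 and 37.8 ± 7.49 CPM per kb (SD, n = 3). Stat3 (11.6 ± 1.74 CPM per kb) and Bcl3 (10.4 ± 7.99 CPM per kb) followed, then Il6st (6.31 ± 0.706 CPM per kb) and Lifr (5.70 ± 1.02 CPM per kb), and Osmr was last at 0.240 ± 0.167 CPM per kb. The place of Bcl3 rested on replicate 1, without which its mean was 5.78 CPM per kb, below Il6st (6.01) and Lifr (6.16). At 24 h in wt cells Pim1 was still first at 26.5 ± 1.69 CPM per kb, and Gbx2, next to last at 0 h with 3.90 ± 3.81 CPM per kb (1.71 without replicate 1), was second at 13.3 ± 1.30 CPM per kb. Socs3 had dropped to 1.01 CPM per kb, below Lifr, Il6st and Stat3. The ranks use exon lengths of GENCODE and assume that all exons are transcribed.

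The KO lines were compared with wt cells at each time point. Each KO line was 1 clone and its libraries were replicates within that clone. Loss of Hmga2 and other differences between clones therefore cannot be told apart. Both comparisons at a time point share the 3 wt libraries. At 0 h, KO#1 differed in Gbx2 alone, 1 of 8 genes where 6.67% of all genes were called (2.68% lower, 3.99% higher), and the KO#2-labelled libraries differed in 6 of 8 where 38.1% were called (16.6% lower, 21.5% higher). In those libraries the receptor chains Il6st and Osmr were higher, and the inhibitor Socs3 and the targets Bcl3, Pim1 and Gbx2 were lower. At 24 h KO#1 differed in Bcl3 alone (9.86% of all genes called, 6.25% higher and 3.61% lower), and the KO#2-labelled libraries again in 6 of 8 (37.3% called, 21.3% higher and 16.0% lower). At that time all 3 receptor chains, Stat3 and Bcl3 were higher in the KO#2-labelled libraries, and Gbx2 was lower. Markers of cell state moved with these differences. At 24 h the primed sum was lower in every KO library (578 to 1159.6 CPM in KO#1 and 555 to 1294 CPM for KO#2) than in any wt library (1331 CPM and above). Dnmt3a and Dnmt3b made up most of this sum. Of the 8 primed markers, 4 were called lower in KO#1 and 2 for KO#2 (3.61% and 16.0% of all genes), with none higher. Otx2 alone had higher means in KO#1 and KO#2 (75.3 and 51.6 CPM) than in wt cells (42.9 CPM). The naive sum was 485 to 604 CPM in KO#1, above all wt libraries (at most 327.4 CPM), and 313 to 719 CPM for KO#2, which overlapped them. Gene by gene, 5 of the 10 naive markers were called higher in KO#1 and 6 for KO#2, with none lower. Of all genes, 6.25% and 21.3% were called higher. The general pluripotency sum at 24 h was 1101 to 1316 CPM for KO#2, below every library of KO#1 (1374 CPM and above) and of wt cells (1466 CPM and above). Most of this sum was Pou5f1, with means of 832 CPM for KO#2 and 1412 CPM in wt cells. Sox2, Nanog and Sall4 had higher means for KO#2 (112, 63.9 and 220 CPM) than in wt cells (62.7, 19.5 and 130 CPM). Of the 4 markers, 2 were called higher for KO#2 and 1 lower. The part of these markers, and of the lower pluripotency sum of KO#2 at both times, in the differences of the 8 genes was not tested.

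At 0 h Gbx2 was lower in KO#1 by a log2 fold change of -1.94 ± 0.50 SE and in the KO#2-labelled libraries by -2.57 ± 0.48 SE (edgeR adjusted p = 0.0232 and 0.000867), with no KO library above the lowest wt library. Without replicate 1 of wt cells the values were -0.89 and -1.56, and the call in KO#1 was lost (edgeR adjusted p = 0.119). It was also lost without replicate 2 or replicate 3 of KO#1, at -1.80 in each case. Bcl3 did not pass the edgeR test in KO#1 (log2 fold change -0.18 ± 0.41 SE, adjusted p = 0.849) and was lower in the KO#2-labelled libraries (-1.25 ± 0.42 SE, adjusted p = 0.0263). The latter call likewise rested on replicate 1 of wt cells, without which the value was -0.47 (edgeR adjusted p = 0.297). The call was also lost without any 1 of the KO#2-labelled libraries, though the value stayed at -1.25 to -1.24. Pim1 gave the clearest difference, -1.65 ± 0.26 SE in the KO#2-labelled libraries (edgeR adjusted p = 0.000211), and kept its call with any library left out. In KO#1 the Pim1 libraries were all below those of wt cells, but the log2 fold change of -0.47 ± 0.25 SE did not pass the test (edgeR adjusted p = 0.32).

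Also at 0 h, Socs3 was lower in the KO#2-labelled libraries (log2 fold change -1.17 ± 0.36 SE, edgeR adjusted p = 0.0186), and its -0.85 ± 0.36 SE in KO#1 did not pass (adjusted p = 0.189). The Socs3 call was lost without replicate 1 of wt cells or replicates 1 or 2 labelled KO#2, at -1.06 to -1.03. Stat3 passed in neither comparison, at -0.39 ± 0.30 SE in KO#1 and -0.60 ± 0.30 SE in the KO#2-labelled libraries (edgeR adjusted p = 0.52 and 0.122). Receptor and inhibitor thus lay on opposite sides of the wt level in the KO#2-labelled libraries. There Osmr was higher by 2.12 ± 0.60 SE on the log2 scale and Il6st by 0.70 ± 0.23 SE (edgeR adjusted p = 0.0112 and 0.0231). The pooled Osmr level was 4.08 times that of wt cells (95% exact conditional interval 3.26 to 5.16). The Osmr call was lost without replicate 3 of wt cells (1.83, edgeR adjusted p = 0.0569). That of Il6st was lost without replicates 2 or 3 of wt cells or replicates 1 or 3 labelled KO#2, at 0.59 to 0.73. Lifr, at 0.67 ± 0.35 SE, overlapped the wt libraries and did not pass (edgeR adjusted p = 0.14).

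At 24 h Bcl3 was higher in both KO lines, by 1.96 ± 0.48 SE in KO#1 and by 1.52 ± 0.48 SE in the KO#2-labelled libraries on the log2 scale (edgeR adjusted p = 0.0125 and 0.0187). The call in KO#1 was lost without replicate 1 of wt cells (1.95, edgeR adjusted p = 0.0529). The other was lost without replicates 1 or 3 of wt cells or replicates 1 or 2 labelled KO#2, at 1.20 to 1.47. Stat3 was higher by 0.97 ± 0.31 SE in the KO#2-labelled libraries (edgeR adjusted p = 0.0201), and in KO#1 its 0.72 ± 0.31 SE did not pass (adjusted p = 0.173). The Stat3 call was lost without replicates 1 or 2 of wt cells or replicates 1 or 2 labelled KO#2, at 0.84 to 0.92. Socs3 passed in neither line, at 0.36 ± 0.41 SE and 0.33 ± 0.40 SE (edgeR adjusted p = 0.694 and 0.536).

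Among the receptor chains at 24 h, Lifr was higher in the KO#2-labelled libraries by 1.73 ± 0.36 SE and Il6st by 1.17 ± 0.23 SE on the log2 scale (edgeR adjusted p = 0.00136 and 0.000884), and both calls held with any library left out. In KO#1 all 3 Lifr libraries lay above the wt libraries, but its 0.61 ± 0.36 SE did not pass (edgeR adjusted p = 0.353), and Il6st was at -0.13 ± 0.23 SE (adjusted p = 0.831). Osmr was higher by 2.64 ± 0.88 SE in the KO#2-labelled libraries (edgeR adjusted p = 0.026). This rested on 49 counts against 5, a pooled ratio of 6.23 (95% exact conditional interval 2.495 to 20.03), and the lowest KO#2 library fell inside the wt range. It was lost without replicates 2 or 3 of wt cells or replicate 1 labelled KO#2, at 1.96 to 2.34. Gbx2 was at -1.16 ± 0.42 SE in KO#1 and -1.15 ± 0.42 SE in the KO#2-labelled libraries, of which the latter passed (edgeR adjusted p = 0.0931 and 0.0369). Its call was lost in each of the 6 fits that left out 1 library, with values between -1.21 and -1.10. Pim1 passed in neither line, at -0.67 ± 0.25 SE and -0.38 ± 0.25 SE (edgeR adjusted p = 0.108 and 0.241).

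**Figure D3:**
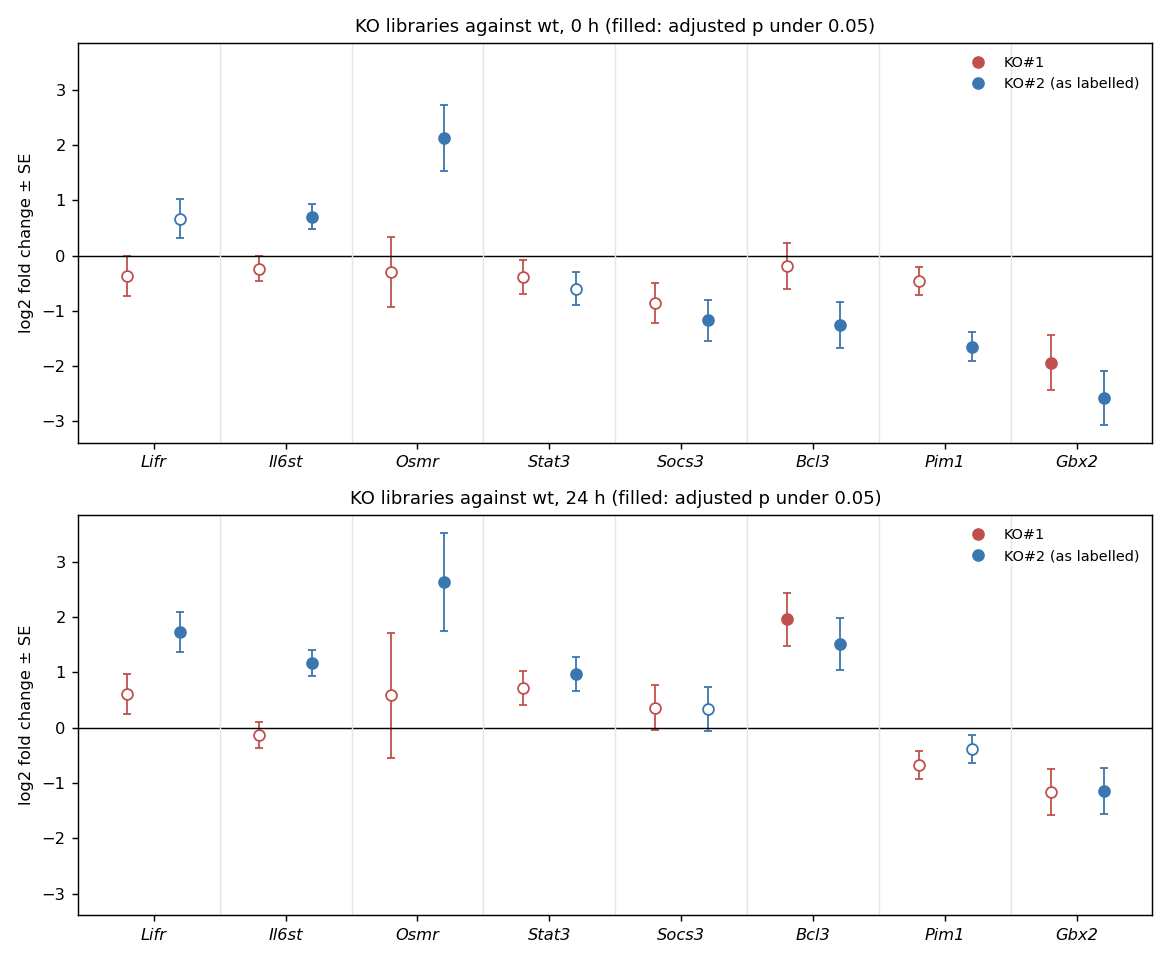
Log2 fold change of the KO libraries against wt libraries (vertical axes) for the 8 genes at 0 h (upper panel) and 24 h (lower panel), with bars of ± 1 SE from the edgeR model. Filled points had an adjusted p under 0.05: at 0 h the receptor chains Il6st and Osmr lie above 0 and Socs3, Bcl3, Pim1 and Gbx2 below 0 in the KO#2-labelled libraries, and at 24 h Bcl3 lies above 0 in both lines.

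Whether the change over 24 h differed between a KO line and wt cells was tested as an interaction, with the wt libraries again shared. In KO#1, 0 of 8 genes passed the edgeR test, where 0.391% of all genes did (0.253% higher, 0.138% lower), and 0 passed in DESeq2. At an unadjusted p under 0.05 there were 3, Stat3, Socs3 and Bcl3, where 10.1% of all genes were under it. In the KO#2-labelled libraries, 1 of 8 passed, where 1.47% of all genes did (0.951% higher, 0.517% lower). This was Bcl3, whose fall was smaller than in wt cells by 2.77 ± 0.63 SE on the log2 scale (edgeR adjusted p = 0.0344), beside 2.15 ± 0.63 SE in KO#1 (adjusted p = 0.175). The call was lost in 9 of the 12 fits that left out 1 library, with values between 1.99 (without replicate 1 of wt cells at 0 h) and 3.10 over all 12. With only the groups compared it was lost too (2.80, edgeR adjusted p = 0.0567), and Stat3 was called instead (1.59, edgeR adjusted p = 0.0479). The other 7 genes had differences between 0.47 and 1.57 in the KO#2-labelled libraries, the highest for Stat3 (1.57 ± 0.43 SE, edgeR adjusted p = 0.0708), and an unadjusted p under 0.05 was reached by 6 of the 8, where 23.6% of all genes reached it.

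The 0 h cultures contained feeder cells, and markers of fibroblasts moved with several of these results. The summed level of 8 fibroblast genes was 110 to 390 CPM in wt cells at 0 h, 183 to 514 CPM in KO#1 and 331 to 898 CPM in the KO#2-labelled libraries. At 24 h it was 19.0 to 34.6 CPM in wt cells, 38.7 to 51.8 CPM in KO#1 and 71.0 to 219 CPM in the KO#2-labelled libraries, so the lines did not overlap at that time. Of the 8 fibroblast genes, 6 were lower and 1 was higher at 24 h in wt cells, and the higher one, Dcn, had 0 counts in all 3 wt libraries at 0 h (24.7% of all genes were lower and 26.0% higher). In the KO#2-labelled libraries, 4 were higher than in wt cells at 0 h (21.5% of all genes) and 6 at 24 h (21.3% of all genes), with none lower, while in KO#1 none was called at 0 h and 1 was higher and 1 lower at 24 h (6.25% and 3.61% of all genes). Col1a1, a defining collagen gene, was present in every group, at between 1.90 and 3.83 CPM in wt cells at 24 h. Primitive endoderm genes, another identity that could arise in such cultures, had a summed level of 13.5 to 26.7 CPM in the KO#2-labelled libraries at 24 h and 2.74 to 7.496 CPM in KO#1, all above the 1.05 to 1.88 CPM of wt cells. In the KO#2-labelled libraries most of this sum was Pdgfra (mean 10.3 CPM), which fibroblasts also express, and Gata6 (6.56 CPM), while Sox17, Gata4, Sox7 and Foxa2 had means of 0.347 to 1.49 CPM.

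Over the 18 libraries, the log2 CPM of Il6st had a Pearson r of 0.91 with the log2 of this fibroblast sum, Osmr 0.89, Stat3 0.85, Socs3 0.81, Bcl3 0.78, Lifr 0.69, Pim1 0.13 and Gbx2 -0.78. These values are a description: the libraries share the time point and the line, and after removal of the group means r lay between 0.098 (Pim1) and 0.61 (Socs3). Within KO#1 at 0 h, replicate 3 had the lowest fibroblast sum and the lowest levels of Lifr, Il6st, Osmr, Stat3, Socs3 and Bcl3. Within the KO#2-labelled libraries at 0 h, replicate 3 had the highest sum and the highest levels of Lifr, Il6st, Stat3, Socs3 and Gbx2, but Pim1 and Bcl3 were lowest there and Osmr was highest in replicate 2, which had the lowest sum. In wt cells at 0 h, where the sum was highest in replicate 1 and lowest in replicate 3, Socs3 followed that order, Lifr ran in reverse, and Il6st, Bcl3, Pim1 and Gbx2 were highest in replicate 1, Osmr in replicate 2 and Stat3 in replicate 3. The part of feeder RNA in the levels of the receptor chains and the other genes was not tested.

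**Figure D4:**
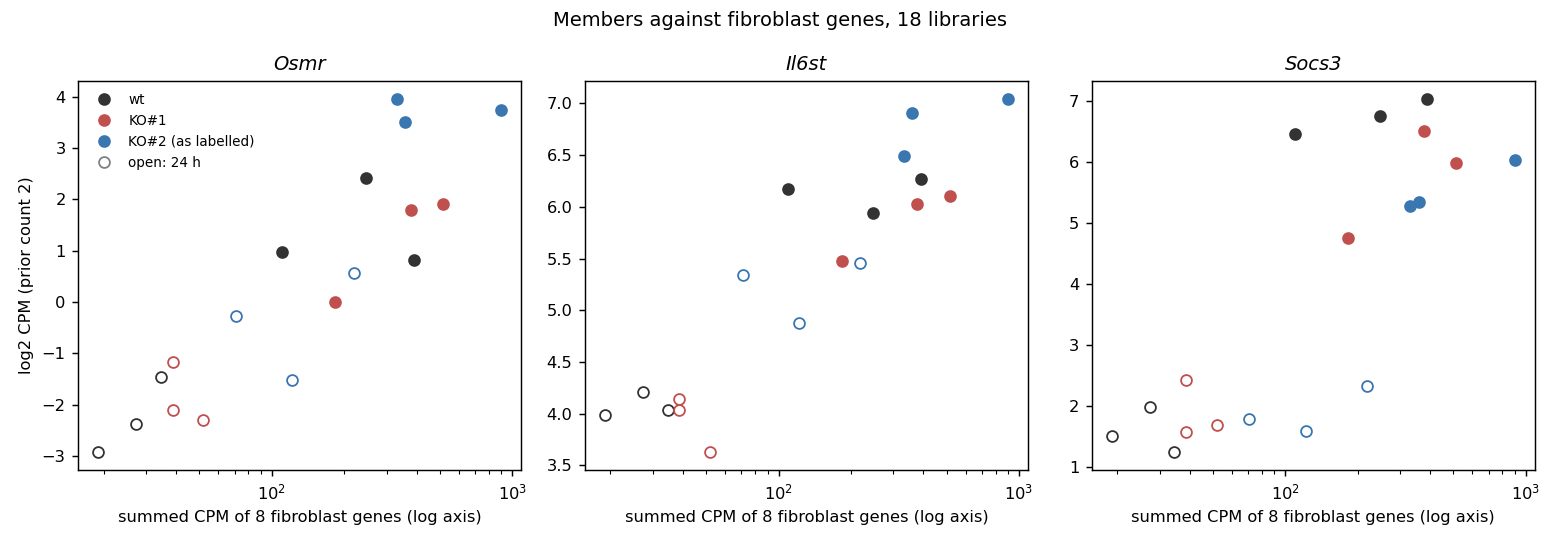
Log2 CPM (prior count 2, vertical axes) of Osmr, Il6st and Socs3 in the 18 libraries against the summed CPM of 8 fibroblast genes (horizontal log axis). Filled points are 0 h and open points 24 h: within each line all 3 genes and the fibroblast sum are higher at 0 h without overlap, while across lines Osmr and the sum overlap between the time points, and at 0 h the KO#2-labelled libraries are the highest for Osmr and Il6st but lie below the wt libraries for Socs3.

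Among the 8 genes, Stat3 and Socs3 ran most closely together over the 18 libraries (r = 0.97), followed by Il6st and Osmr (0.94) and Stat3 and Bcl3 (0.92). After removal of the group means the highest values were 0.83 for Il6st with Stat3 and for Lifr with Il6st, and 0.82 for Stat3 with Socs3. Pim1 had no r above 0.47 with any of the other 7, and Gbx2 had negative values with Lifr, Il6st, Osmr, Stat3, Socs3 and Bcl3, from -0.85 to -0.48. After removal of the group means the sign turned for Gbx2 with Il6st, Stat3, Socs3 and Bcl3 (0.39, 0.22, 0.23 and 0.76), and it was -0.19 with Osmr and -0.013 with Lifr. All these correlations share the contrast between 0 h and 24 h and carry no test.

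The genes with the most similar pattern to each member were sought among 10716 genes with an average log2 CPM of at least 2. For Lifr they were Adamts9 (r = 0.94), Deptor and Vps13c, and for Il6st Gm608 (0.99), Arhgap26 and Ankrd12. For Osmr they were Col12a1 (0.97), Lox and Pappa, of which Lox is on the fibroblast list and Col12a1 encodes a collagen. For Stat3 they were Eef2k (0.99), Tcn2 and Alpk3, and for Socs3 Grn (0.98) and Esrrb, the last a naive pluripotency factor. For Bcl3 they were 6330416G13Rik (0.98), Klf5 and Cdk18, with Klf5 another factor of naive cells. Pim1 had the weakest partners, Ube2r2 (0.87), Ywhag and Tcf3. For Gbx2 they were Srrt (0.95), Pou3f1 and Daxx, of which Pou3f1 (Oct6) marks primed cells.

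The other genes of the pathway were counted from lists of ligands, receptor chains, kinases and adaptors, Stats, feedback inhibitors and Stat3 targets. Their counts stand beside the share of all genes called over 24 h, which was 50.7% (wt), 40.8% (KO#1) and 26.0% (KO#2-labelled), and no list was tested against it. In wt cells at 24 h against 0 h, 2 of 6 ligands tested rose and 2 fell. Osm, oncostatin M, fell by 3.31 and Lif by 1.56 on the log2 scale, and Clcf1, a cytokine that acts through Cntfr, rose by 2.71 (edgeR adjusted p = 0.000743, 0.0107 and 0.0161). The Clcf1 call was lost without replicate 3 of wt cells at 0 h or at 24 h, at 1.94 and 2.39, and when totals were used without TMM factors (2.09). Of the 4 other receptor chains 3 rose and 1 fell, Il6ra, the interleukin 6 chain, fell by 3.83, while Cntfr, the ciliary neurotrophic factor chain, rose by 3.38 (edgeR adjusted p = 1.94e-05 and 3.91e-06). Of 7 kinases and adaptors 2 fell and none rose. These were Jak3, a kinase best known from lymphocytes (-4.32 ± 0.55 SE, edgeR adjusted p = 1.12e-05), and the adaptor Grb2 (-1.47 ± 0.33 SE, adjusted p = 0.00153), while Jak1, Jak2 and Tyk2, the kinases of this receptor family, did not pass.

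Of the 6 other Stats, 4 fell in wt cells and none rose. Stat5b was at 10.8, 8.72 and 14.8 CPM at 0 h and at 0.763, 0.902 and 1.30 CPM at 24 h (log2 fold change -3.52 ± 0.40 SE, edgeR adjusted p = 3.64e-06), and Stat2 (-2.27 ± 0.34 SE), which carries interferon signals, also fell (adjusted p = 4.89e-05). Stat5b ended higher in KO#1, at 3.60, 3.17 and 5.54 CPM, and in the KO#2-labelled libraries, at 3.08, 3.75 and 1.52 CPM, than in any wt library. Its change over 24 h differed from that of wt cells by 2.47 ± 0.52 SE in KO#1 and by 2.30 ± 0.52 SE in the KO#2-labelled libraries (edgeR adjusted p = 0.0461 and 0.0324). These calls were lost in 12 and 8 of 12 fits that left out 1 library, at 2.20 to 2.77 in KO#1 and 2.02 to 2.36 in the KO#2-labelled libraries. Of 6 other feedback inhibitors only Socs1 was called in wt cells and rose (1.54 ± 0.45 SE, edgeR adjusted p = 0.009), in the opposite direction to Socs3. Its call was lost without replicate 3 of wt cells at 0 h (1.36, edgeR adjusted p = 0.0528) and without TMM factors (0.89).

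Of 8 other Stat3 targets, 5 fell and 2 rose in wt cells. Klf4 fell from 363, 195 and 397 CPM to 4.46, 3.61 and 2.35 CPM, and Tfcp2l1 and Klf5, which with Klf4 sustain the naive state, fell by 5.19 and 5.20 on the log2 scale (edgeR adjusted p = 1.88e-07, 1.01e-07 and 2.44e-06). In the KO#2-labelled libraries the falls of Klf4 and Klf5 were smaller by 2.94 ± 0.62 SE and 3.21 ± 0.69 SE on the log2 scale (edgeR adjusted p = 0.0231 and 0.026). Klf4 ended there at 18.9, 14.9 and 4.00 CPM and Klf5 at 27.5, 20.1 and 8.21 CPM, both highest in replicate 1. The calls of these differences were lost in 6 and 8 of 12 fits that left out 1 library, at 2.54 to 2.99 for Klf4 and 2.80 to 3.30 for Klf5. In KO#1 the list had 2 genes that rose and 3 that fell, and in the KO#2-labelled libraries also 2 and 3. These lists were drawn up with earlier results of the same libraries known, and their counts are a description.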

How the data were processed

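The authors deposited counts of reads per gene for the 18 libraries, as whole numbers with no normalization. According to the methods, stranded total RNA libraries were sequenced as paired ends, trimmed with Trim Galore, aligned to GRCm38 with STAR and quantified with Salmon and StringTie. The annotation release and the use of strand in counting are not given in the sources used here. Positions, exon lengths and overlaps came from GENCODE M21, which held 45143 of the 45706 gene identifiers, and promoter windows from RefSeq on GRCm38.p6.

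Groups came from the sample labels. Counts were analysed with R 4.3.3 and edgeR 4.0.16: genes were kept by filterByExpr (minimum count 10), which left 16619, TMM factors scaled the totals, and all 18 libraries entered 1 quasi-likelihood model with a term per group (common dispersion 0.0970). Genes were called at a Benjamini-Hochberg adjusted p under 0.05 over all genes tested. The SE was taken as |log2 fold change| over the root of the F statistic. Totals were 3466436 to 23872837 counts per library. DESeq2 1.42.0 was an alternative, and Python 3.11.15 with pandas 2.3.3, scipy 1.17.1 and matplotlib 3.10.9 served for the intervals and plots. The steps were tested on simulated counts.

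The 8 members were all named. From each pathway list the genes called in wt cells over time or in a response difference were named, at most 3 by the smallest p, and for each member the 3 genes with the highest r over the 18 libraries (log2 CPM, prior count 2). Some genes this rule takes are not reported here. Dcn, the Jak kinases, Col1a1 and the primitive endoderm genes were named outside this rule, after their values were seen. The members and lists were chosen with earlier results of these data known. Alternatives were the Wald test of DESeq2, edgeR with RLE factors, totals without factors (library sizes alone), no filter on counts, a filter of at least 10 counts in every library, models with the compared groups only, a replicate block, and each library left out. The fit on protein-coding genes and the alternatives for genes other than the members were added after seeing the data. No pair among 153 pairs of libraries had identical counts. The authors' ChIP-seq and Hi-C data were not analysed here.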

Additional observations from a re-analysis of the deposited data

Results flagged for a closer look

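The change over 24 h passed the edgeR test of a difference between a KO line and wt cells (an interaction) for Bcl3 and for 3 other genes of the pathway. For Bcl3 the difference was 2.77 on the log2 scale in the KO#2-labelled libraries (edgeR adjusted p = 0.0344), and every KO library of both lines was above every wt library at 24 h, 6 of 6. For Stat5b it was 2.47 (KO#1) and 2.30 (labelled KO#2) (edgeR adjusted p = 0.0461 and 0.0324). For Klf4 it was 2.94 and for Klf5 3.21 in the KO#2-labelled libraries (edgeR adjusted p = 0.0231 and 0.026). With 1 library left out, Bcl3 was lost in 9 of 12 fits, Stat5b in 12 of 12 (KO#1) and 8 of 12 (labelled KO#2), Klf4 in 6 of 12 and Klf5 in 8 of 12. Bcl3 was also lost with only the groups compared (2.80, edgeR adjusted p = 0.0567), and Stat5b in KO#1 with the replicate block (2.45) and with library sizes alone (2.33). Both lines were compared with the same wt libraries. The difference between the KO lines was not tested.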

How the results depend on the processing

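The counts of members called over 24 h were 8, 7 and 6 in wt cells, KO#1 and the KO#2-labelled libraries (KO#2 below) and ranged over 8 to 8, 7 to 7 and 6 to 6 when 1 library was left out. Left-out libraries gave counts of 0 to 1 for KO#1 against wt cells at 0 h, 3 to 5 for KO#2 at 0 h, 0 to 1 for KO#1 at 24 h, 2 to 5 for KO#2 at 24 h, 0 to 0 for the response of KO#1 and 0 to 2 for that of KO#2. The lowest count for KO#2 at 0 h came without its replicate 1. At 24 h the count for KO#2 was 3 without any 1 of the wt libraries or its own replicate 2, and 2 without its replicate 1. With at least 10 counts in every library, Osmr and Gbx2 were no longer tested, and the counts at 0 h were 0 for KO#1 and 3 for KO#2, where Bcl3 also lost its call (-1.06, edgeR adjusted p = 0.0545). Of all genes, 473 and 3813 of 9709 were called at 0 h with that filter. With only the groups compared, the counts of members were 0 for KO#1 at 0 h and 3 at 24 h, where 441 of 12792 and 1841 of 13378 genes were called. Without a filter they were 2 for KO#1 at 24 h, 1 for the response of KO#1 and 4 for that of KO#2. Of all genes, 1999, 307 and 1717 of 29079 were called there, against 1638, 65 and 244 of 16619 in the main fit. The response of KO#2 gave 3 in DESeq2, 4 with library sizes alone and 3 with protein-coding genes only. Of all genes, 1409 of 16619, 801 of 16619 and 469 of 13980 were called there, against 244 of 16619 in the main fit. The causes were not tested.

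Library sizes alone moved the median of all genes by 1.04 for KO#2 against wt cells at 24 h, and by less elsewhere. There the log2 fold change of Pim1 turned to 0.65, that of Hmga2 to 1.01, that of Gbx2 became -0.09 (call lost) and that of Socs3 1.36 (called, edgeR adjusted p = 0.011). With the same scaling Bcl3 in KO#1 at 0 h turned to 0.048 and the Il6st response difference of KO#1 to -0.076, and the calls of Socs3 (-0.68) and Bcl3 (-0.71) for KO#2 at 0 h were lost. It also added calls of Lifr, over 24 h in KO#1 (-1.08, edgeR adjusted p = 0.033, which made 8 of 8) and for KO#2 at 0 h (1.12, edgeR adjusted p = 0.0349), and of the response differences of Stat3, Socs3 and Pim1 in KO#2 (2.12, 2.05 and 1.81). Hmga2 in KO#2 at 24 h turned to 0.11 with at least 10 counts in every library and to 0.034 with protein-coding genes only. Signs also turned with 1 library left out, all among values that did not pass the test. In KO#1 at 0 h Bcl3 ranged from -0.50 to 0.63 and Osmr from -0.71 to 0.49, and at 24 h Il6st from -0.21 to 0.042 and Osmr from -0.34 to 1.99. For the response of KO#1 Gbx2 ranged from -0.23 to 1.22, Il6st from -0.065 to 0.27 and Osmr from -0.036 to 2.29, and for that of KO#2 Osmr from -0.27 to 1.92. Lifr over 24 h lay between -0.60 and 0.072 in KO#1 and between -0.55 and 0.16 for KO#2, and Hmga2 in KO#2 at 24 h from -0.82 to 0.27.

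The replicate block kept the direction and the side of the threshold of all 72 values of the members, and the counts were 8, 7 and 6 over 24 h. It ended the call of the Stat5b response difference in KO#1 (2.45, edgeR adjusted p = 0.0677). Deviations of libraries with the same number had a mean r of 0.053 over 45 pairs, 16 of them over 0.1, against -0.027 over 90 pairs with different numbers, and 11 of 18 libraries correlated best with their own number. Between wt cells and KO#1 at 24 h the same numbers had r of 0.48, 0.22 and 0.59. The lowest r of any same-number pair was -0.26. Not every pair was over 0.1, so the main model left the libraries unpaired, but this strict rule cannot exclude a pairing.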
